A study of Mus musculus with 8 samples.

Results

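Immediate early genes and the feedback inhibitors of the mitogen-activated protein kinase (MAPK) pathways were followed on 8 arrays of mouse T helper 17 (Th17) cells. The 36 genes were listed by name: AP-1, EGR and NR4A transcription factors, IER genes, dual-specificity phosphatases, Sprouty and Spred proteins, and further genes that receptor stimulation induces. Each was read from the probe set that the platform annotation gives to that symbol alone. All 36 were measured, by 1 probe set each, among 19938 genes with such a probe set. A filter on dim probe sets (log2 signal of at least 7.85 on at least 2 arrays) left 11128 genes for testing, among them 35 of the 36. Spry2 lay below the filter and was fitted without it. Maff reached the filter on some arrays only, and on neither array of the RORγt wild-type cells introduced below.

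Antigen receptor and cytokine signals reach the nucleus of a T cell through Ras and the kinases ERK, JNK and p38. Factors that are already present, such as the serum response factor with its ternary complex partners and CREB, then switch on the immediate early genes without new protein synthesis. Among the products are transcription factors (FOS, JUN, EGR, NR4A) and the brakes that end the signal: dual-specificity phosphatases remove phosphate from the kinases, and Sprouty and Spred proteins act on the steps between receptor and Raf.

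The series addresses how steroid receptor coactivator-3 (SRC-3, the product of Ncoa3) regulates the differentiation of pathogenic Th17 cells. The 4 groups of 2 arrays each were compared: SRC-3-deficient cells, whose source is labelled SRC-3 (f/f) mice, wild-type cells labelled SRC-3 WT, cells of RORgt (-/-) mice and wild-type cells labelled RORgt WT. RORγt is the nuclear receptor that defines the Th17 lineage. All 8 samples are labelled Th17 cells, and the protocol text given for all of them describes naive CD4+ T cells, activated through CD3 and CD28, that received IL-1, IL-6 and IL-23. That text names wild-type and SRC-3-deficient cells only and gives no time of harvest. The labels name no Cre line or promoter for the floxed allele, and no strain, age, sex or pooling. The titles number the arrays of a group as biological replicates, without saying whether separate mice were used. Each p-value therefore reflects only how far the arrays spread within their groups. In the fit to all 8 arrays this spread is estimated over the 4 groups together, those outside a comparison included.

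Ncoa3 was at 11.15 and 10.97 (log2 signal) on the SRC-3-deficient arrays and at 11.76 and 11.53 on their wild-type arrays, a difference of -0.58 with an adjusted p of 0.0567 by limma. Whether its probes lie in the deleted part was not tested. T cell markers were high in every group (mean of 6 genes 12.53 to 12.97), and 0 of 7 myeloid markers passed the filter. The mean of 4 Th17 markers was 7.78 to 7.92 in RORγt-deficient and 10.83 to 11.02 in RORγt wild-type cells, and 9.72 to 9.81 against 10.28 to 10.55 in the SRC-3 experiment, so the label Th17 names the culture rather than the marker level in the RORγt-deficient cells. Of the NK cell markers, Klrd1 was higher in RORγt-deficient cells by 1.90 (adjusted p 0.000485) and Nkg7 by 1.10 (0.0512), and Ncr1 and Klrb1c lay below the filter. Xist was at 6.37 and 6.08 on the RORγt-deficient arrays and at 12.55 and 12.76 on their wild types, while the Y-linked Eif2s3y was at 10.47 and 10.48 against 4.84 and 4.63. Genotype and sex of the mice therefore cannot be told apart in the RORγt experiment. In the SRC-3 experiment, Xist was at 7.10 on deficient array 1 and between 13.52 and 13.65 on the other 3 arrays.

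Promoter sequences were read from RefSeq (GRCm38.p6) for 28 of the 36 genes, as the 250 bases before each annotated start, 38 windows in all. Cd69, Dusp4, Egr1, Egr3, Fosl1, Ier2, Klf10 and Myc were not matched. The 6 windows below are printed 5′ to 3′ on the gene's strand. Dusp10, Ier5 and Zfp36l1 are shown because they changed in RORγt-deficient cells. Dusp5 is shown for the same reason, and Nr4a1 and Egr2 for their spread between replicate arrays; these 3 were chosen after their values were seen. Capitals mark every match, on either strand, to 9 motifs: the CArG box of the serum response element, the cAMP response element TGACGTCA and its core TGACG, the AP-1 site TGANTCA, the EGR site GCGNGGGCG, the SP site GGGCGG, the NR4A site AAAGGTCA, the ROR monomer motif AGGTCA and the E-box CACGTG. The core TGACG lies within TGACGTCA and AGGTCA lies within AAAGGTCA, so those matches are counted under both, and SP matches can overlap EGR matches.
Dusp10, chr1:184034131-184034380, plus strand: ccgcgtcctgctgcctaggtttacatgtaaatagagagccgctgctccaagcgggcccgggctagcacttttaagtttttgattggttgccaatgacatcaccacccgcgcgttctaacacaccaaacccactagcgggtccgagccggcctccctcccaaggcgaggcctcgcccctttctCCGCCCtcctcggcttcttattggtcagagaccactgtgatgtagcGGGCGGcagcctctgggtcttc
Ier5, chr1:155099637-155099886, minus strand: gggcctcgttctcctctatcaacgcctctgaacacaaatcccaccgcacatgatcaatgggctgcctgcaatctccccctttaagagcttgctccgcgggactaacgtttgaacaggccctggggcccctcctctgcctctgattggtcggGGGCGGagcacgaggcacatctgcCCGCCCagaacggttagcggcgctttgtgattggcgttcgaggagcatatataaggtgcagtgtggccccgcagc
Zfp36l1, chr12:80113014-80113263, minus strand: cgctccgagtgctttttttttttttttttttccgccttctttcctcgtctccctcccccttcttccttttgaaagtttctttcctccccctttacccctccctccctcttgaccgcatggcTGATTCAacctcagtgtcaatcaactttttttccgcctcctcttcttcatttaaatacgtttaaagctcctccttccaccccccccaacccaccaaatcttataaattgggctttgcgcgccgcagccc
Dusp5, chr19:53528895-53529144, plus strand: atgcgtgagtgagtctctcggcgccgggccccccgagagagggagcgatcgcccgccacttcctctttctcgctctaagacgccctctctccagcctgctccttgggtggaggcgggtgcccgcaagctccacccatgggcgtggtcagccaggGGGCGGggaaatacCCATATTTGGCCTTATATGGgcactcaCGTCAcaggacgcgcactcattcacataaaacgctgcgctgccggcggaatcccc
Nr4a1, chr15:101266596-101266845, plus strand: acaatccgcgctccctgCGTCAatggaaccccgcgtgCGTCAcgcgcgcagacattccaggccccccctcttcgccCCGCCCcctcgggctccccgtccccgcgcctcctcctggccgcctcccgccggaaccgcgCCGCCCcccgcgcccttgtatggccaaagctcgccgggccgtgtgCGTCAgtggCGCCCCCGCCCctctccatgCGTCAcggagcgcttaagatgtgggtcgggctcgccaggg
Egr2, chr10:67537619-67537868, plus strand, 1 of several annotated starts: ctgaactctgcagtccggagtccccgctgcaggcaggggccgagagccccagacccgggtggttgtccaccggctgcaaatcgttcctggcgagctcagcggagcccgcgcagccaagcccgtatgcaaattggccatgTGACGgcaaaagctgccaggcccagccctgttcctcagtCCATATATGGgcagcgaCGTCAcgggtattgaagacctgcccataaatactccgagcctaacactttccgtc

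The Dusp5 window held a pair of adjacent CArG boxes at positions -82 to -73 and -72 to -63, counting the base before the start as -1, and a TGACG core at -55 to -51. The Egr2 window held 1 CArG box at -72 to -63 and TGACG cores at -111 to -107 and -55 to -51. Nr4a1 held 4 TGACG cores, 3 SP sites and 1 EGR site that overlaps an SP site. Dusp10 and Ier5 each held 2 SP sites and no other match, and Zfp36l1 held 1 AP-1 site.

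CArG boxes stood in 6 of the 38 windows (15.8%), those of Dusp5, Egr2 and Zfp36, and in 1.47% of all 32851 promoter windows of the same length. The core TGACG was in 19 windows of 13 genes (50%, against 17.77% of all windows), and the full TGACGTCA in 3 (7.9% against 1.55%), those of Btg2, Dusp1 and Maff. EGR sites were in 9 windows (23.7% against 4.7%), SP sites in 25 (65.8% against 32.74%) and E-boxes in 7 (18.4% against 6.02%). AP-1 sites were in 2 windows (5.3% against 6.75%), those of Csrnp1 and Zfp36l1. The NR4A site was in 0 windows (1.34% of all) and the ROR motif in 2 (5.3% against 14.02%), those of Btg2 and Csrnp1. Several windows of 1 gene overlap, and a match describes letters in the window only.

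**Figure D1:**
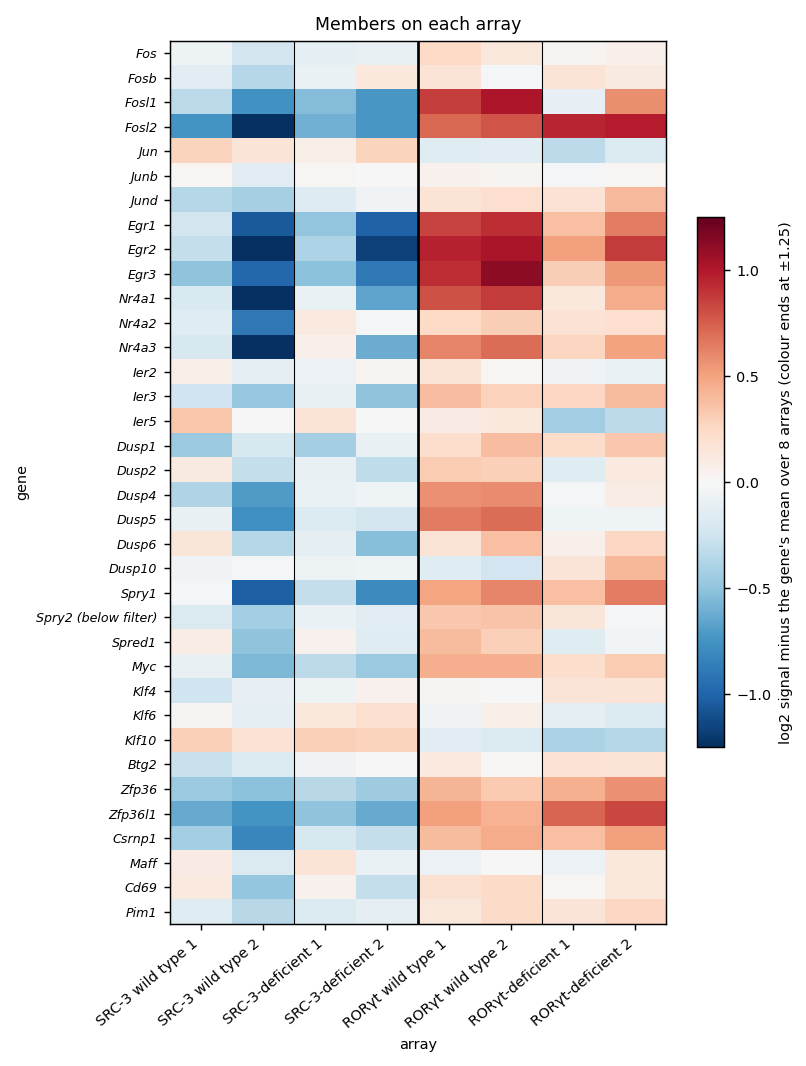
Heat map of the 36 genes (rows) on the 8 arrays (columns); colour is the log2 signal minus the gene's own mean over the 8 arrays. Most rows are higher on the 4 arrays of the RORγt experiment, and array 2 of the SRC-3 wild type is the lowest of its 4 for 26 of the 35 genes that passed the filter.

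Of the 35 tested genes, 6 (17.1%) differed between RORγt-deficient and wild-type cells at an adjusted p of at most 0.05 in limma. In the deficient cells 2 were higher and 4 lower, and genotype and sex cannot be told apart here. The share of 17.1% is close to that of all 11128 genes, of which 19.4% passed (10% higher and 9.37% lower). The phosphatase gene Dusp10 and the mRNA decay factor gene Zfp36l1 rose, and the phosphatase genes Dusp4 and Dusp5 fell, as did Ier5 and Klf10. No gene of the list reached a 2-fold difference. The median difference over the 35 genes was -0.12, beside 0.00 over all genes tested. In RNA from whole cultures, fewer cells of a type and less RNA per cell cannot be told apart.

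Of the dual-specificity phosphatases, Dusp10 acts mainly on p38 and JNK. Its log2 signals were 9.82 and 10.07 in RORγt-deficient cells, 9.51 and 9.42 in their wild type, 9.59 and 9.60 in SRC-3-deficient cells and 9.62 and 9.64 in the SRC-3 wild type. Both RORγt-deficient arrays lay above the other 6. Dusp10 rose by 0.48 (SE 0.09, 1.40-fold, adjusted p 0.0095). With RORγt wild-type array 1 or 2 left out, the adjusted p was 0.051 or 0.0764.

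Dusp4, a nuclear phosphatase that ERK signalling induces, went the other way. Its signals were 10.64 and 10.75 in RORγt-deficient cells and 11.23 and 11.26 in their wild type, and 10.58 and 10.61 in SRC-3-deficient cells against 10.29 and 9.96 in theirs. The deficient arrays were below wild type in the RORγt experiment and above it in the SRC-3 experiment, with no overlap in either. Dusp4 fell by 0.55 (SE 0.11, 1.46-fold lower, adjusted p 0.0125) with RORγt deficiency. The adjusted p was 0.0936 without deficient array 1, 0.0727 without wild-type array 1 and 0.0838 without wild-type array 2.

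Dusp5, a nuclear phosphatase specific for ERK, had signals of 10.36 and 10.36 in RORγt-deficient cells, 11.07 and 11.11 in their wild type, 10.24 and 10.18 in SRC-3-deficient cells and 10.32 and 9.65 in the SRC-3 wild type. Its RORγt groups were separated, and its SRC-3 groups overlapped. With RORγt deficiency Dusp5, whose window with the pair of CArG boxes is printed above, fell by 0.73 (SE 0.18, 1.66-fold lower, adjusted p 0.0310). Leaving out any 1 of the 4 RORγt arrays kept the difference between -0.75 and -0.70 and gave adjusted p values from 0.115 to 0.151.

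Dusp1, Dusp2 and Dusp6 did not pass in this comparison. Dusp1, a phosphatase of p38 and JNK, was at 11.29 and 11.40 in RORγt-deficient and 11.28 and 11.45 in wild-type cells, a difference of -0.02 (95% interval -0.32 to 0.29). Dusp6, the cytoplasmic ERK phosphatase, was at 11.07 and 11.26 against 11.17 and 11.38, a difference of -0.12 (-0.56 to 0.33). Both pairs of groups overlapped. Dusp2, another nuclear phosphatase, differed by -0.32 (adjusted p 0.168) without overlap.

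**Figure D2:**
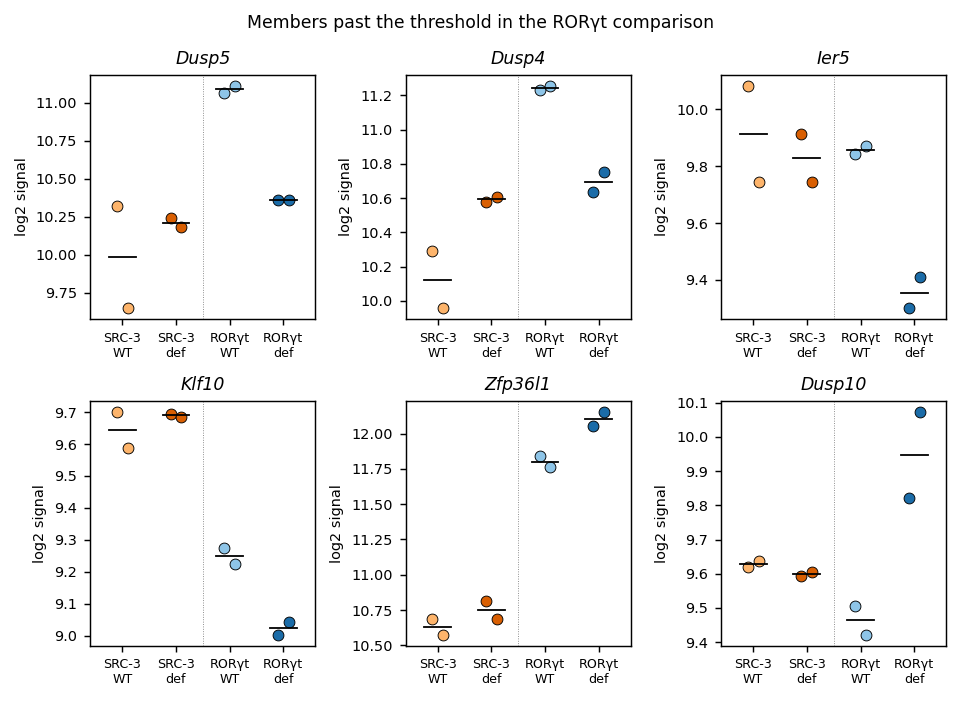
Log2 signal (vertical axis) of the 6 genes that passed the threshold in the RORγt comparison, by group; each point is 1 array and each line the mean of 2. Dusp10 and Zfp36l1 sit higher and Dusp4, Dusp5, Ier5 and Klf10 lower in RORγt-deficient (def) than in RORγt wild-type (WT) cells, without overlap.

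Ier5, an early gene tied to the heat shock response, and Klf10, a TGF-β-induced zinc finger factor, were the other genes that fell. Ier5 was at 9.30 and 9.41 in RORγt-deficient cells, 9.84 and 9.87 in their wild type, 9.91 and 9.74 in SRC-3-deficient cells and 10.08 and 9.74 in the SRC-3 wild type. The RORγt-deficient arrays were the lowest of the 8. Ier5 fell by 0.50 (SE 0.11, 1.42-fold lower, adjusted p 0.0224). Without 1 RORγt array at a time its adjusted p was 0.141 (deficient array 1 left out), 0.0673 (deficient array 2), 0.104 (wild-type array 1) and 0.123 (wild-type array 2).

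Klf10 was at 9.00 and 9.04 in RORγt-deficient cells and 9.27 and 9.23 in their wild type, and at 9.70, 9.68, 9.70 and 9.59 in the SRC-3 experiment. The RORγt groups did not overlap and lay below all SRC-3 arrays. Its fall of 0.23 (SE 0.06, 1.17-fold lower, adjusted p 0.0397) was the call nearest to the threshold. Leaving out a RORγt array gave adjusted p values of 0.211 (deficient array 1), 0.121 (deficient array 2), 0.185 (wild-type array 1) and 0.128 (wild-type array 2). It was also lost without either SRC-3-deficient array (0.0519 for each), with all arrays shifted to a common median (0.0648) and with no filter (0.0728).

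Zfp36l1 encodes a protein that binds AU-rich elements and promotes decay of short-lived mRNAs. Its signals were 12.05 and 12.15 in RORγt-deficient cells, 11.84 and 11.76 in their wild type, 10.81 and 10.69 in SRC-3-deficient cells and 10.69 and 10.58 in the SRC-3 wild type. The RORγt-deficient arrays were the highest, and both RORγt groups lay above both SRC-3 groups. Zfp36l1 rose by 0.30 (SE 0.07, 1.23-fold, adjusted p 0.0293). The adjusted p was 0.0901 without deficient array 1, 0.155 without deficient array 2, 0.0932 without wild-type array 1 and 0.164 without wild-type array 2. Its relative Zfp36 differed by 0.13 (adjusted p 0.250) and the growth inhibitor Btg2 by 0.11 (0.286).

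The EGR factors, zinc finger proteins of which Egr2 and Egr3 restrain T cell activation, did not pass. Egr1 was at 11.21 and 11.48 in RORγt-deficient and 11.68 and 11.76 in wild-type cells, a difference of -0.37 (SE 0.27, adjusted p 0.371). Egr2 was at 11.52 and 11.88 against 11.97 and 12.03, a difference of -0.30 (SE 0.39, adjusted p 0.635). Egr3 was at 10.69 and 10.93 against 11.31 and 11.50, a difference of -0.60 (SE 0.18, adjusted p 0.0594). For all 3 the deficient arrays were lower without overlap. The SE of this fit is shared by all 4 groups. For Egr1 the SD was 0.37 in SRC-3-deficient and 0.59 in SRC-3 wild-type cells. It was 0.19 in RORγt-deficient and 0.06 in RORγt wild-type cells. With the 4 RORγt arrays fitted alone in limma, Egr1 (adjusted p 0.0296) and Egr3 (0.00844) passed, beside 30.5% of all genes, and Egr2 did not.

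The NR4A orphan receptors follow antigen receptor signal strength. Nr4a1 was at 12.01 and 12.34 in RORγt-deficient and 12.67 and 12.74 in wild-type cells, a difference of -0.53 (SE 0.34, adjusted p 0.316). Nr4a2 differed by -0.09 (adjusted p 0.808) and Nr4a3 by -0.26 (0.646). None of the 3 passed, although their groups did not overlap.

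Of the AP-1 genes, 0 of 7 passed. Fos was at 8.14 and 8.17 in RORγt-deficient and 8.35 and 8.24 in wild-type cells (difference -0.14, adjusted p 0.209). Jun was at 9.88 and 10.03 against 10.05 and 10.07 (-0.11, adjusted p 0.439). Fosl1, the gene of the FOS relative FRA1, was at 9.12 and 9.81 against 10.09 and 10.23 (-0.69, SE 0.22, adjusted p 0.0669). Its deficient arrays differed from each other by as much as the groups did. Fosl2 differed by 0.21 (adjusted p 0.431), and Fosb, Junb and Jund by 0.07, -0.04 and 0.10.

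Myc, a driver of growth and metabolism in activated T cells, was at 13.01 and 13.12 in RORγt-deficient and 13.25 and 13.24 in wild-type cells (-0.18, adjusted p 0.400). Cd69, the early activation antigen on the T cell surface, was at 11.56 and 11.68 against 11.73 and 11.78 (-0.14, adjusted p 0.659). Spred1 differed by -0.45 (SE 0.18, adjusted p 0.117), Spry1 by -0.04 (0.937) and Spry2, without the filter, by -0.28 (0.113). The other genes, Ier2, Ier3, Klf4, Klf6, Csrnp1, Maff and Pim1, had differences between -0.16 and 0.15.

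Of the 35 genes, 26 had RORγt groups that did not overlap, 6 with the deficient arrays higher and 20 with them lower. Over all genes the groups did not overlap for 70%, split into 35.8% higher and 34.2% lower. The higher ones were Btg2, Dusp10, Fosl2, Klf4, Zfp36 and Zfp36l1. An unadjusted p under 0.05 was reached by 9 of the 35 genes and by 34.6% of all genes. On RORγt-deficient array 1, 22 of the 35 genes had their lowest value of the 4 arrays, beside 28.0% of all genes.

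The number of calls depended on which arrays set the spread. When the 4 RORγt arrays were fitted alone, 3 genes were higher and 9 lower, and 30.5% of all genes passed (16.5% higher, 13.9% lower). The additions were Fosl2 (adjusted p 0.0312), Egr1 (0.0296), Egr3 (0.00844), Nr4a1 (0.0158), Dusp2 (0.0464) and Spred1 (0.00556). Leaving out 1 RORγt array reduced the calls to Dusp10 (without deficient array 1), to Dusp10, Dusp4 and Fosl1 (without deficient array 2) and to 0 (without either wild-type array). Leaving out either SRC-3 wild-type array added Egr3 (adjusted p 0.0273) and Spred1 (0.0132), and leaving out either SRC-3-deficient array added Egr3 (0.0457).

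**Figure D3:**
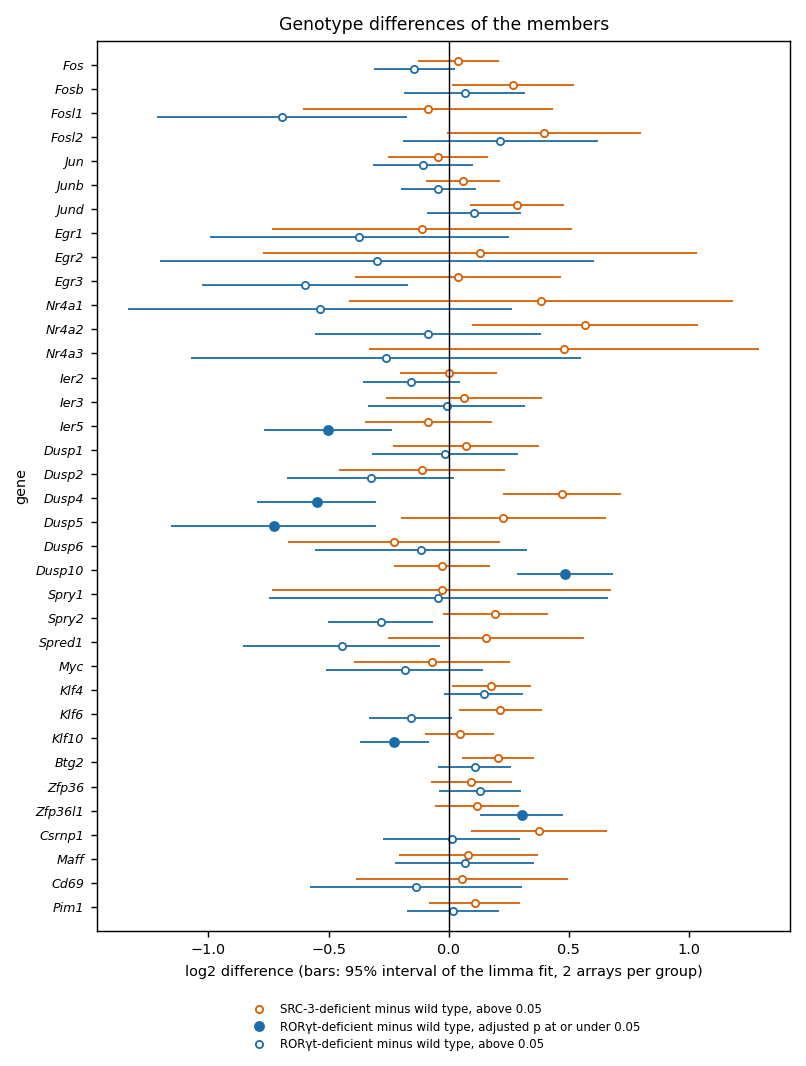
Log2 differences (horizontal axis) of the 36 genes in the SRC-3 and the RORγt comparison, with 95% intervals of the limma fit; filled points have an adjusted p of at most 0.05. The 6 filled points are all from the RORγt comparison, and the intervals of the EGR and NR4A genes are among the widest.

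In SRC-3-deficient cells 0 of the 35 genes passed the threshold in limma, where 0.225% of all genes did (0.189% higher, 0.0359% lower). At an unadjusted p under 0.05 there were 8, beside 12.5% of all genes: Dusp4, Jund, Btg2, Csrnp1, Klf6, Nr4a2, Klf4 and Fosb, each with a positive difference. Groups did not overlap for 11 genes, 10 of them higher and 1 (Dusp10) lower, while over all genes they did not overlap for 37.2% (23% higher, 14.3% lower). The median difference was 0.08, beside 0.02 over all genes. With deficient array 1, the one low in Xist, left out, 0 genes of the list passed as well.

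The smallest p belonged to Dusp4, at 10.58 and 10.61 in SRC-3-deficient and 10.29 and 9.96 in wild-type cells. The difference was 0.47 (SE 0.11, 1.38-fold, adjusted p 0.133). Jund, the AP-1 member with steady expression in resting cells, was at 11.21 and 11.33 against 11.01 and 10.95 (0.28, adjusted p 0.234). Nr4a2 was at 10.72 and 10.58 against 10.45 and 9.71 (0.57, SE 0.20, adjusted p 0.316). Neither Dusp4, Jund nor Nr4a2 overlapped between the groups.

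Much of the spread in this comparison lay between the 2 wild-type arrays, and with 2 arrays it cannot be assigned to either. Wild-type array 1 was the highest of the 4 arrays for 16 of the 35 genes (19.9% of all genes). Wild-type array 2 was the lowest for 26 (27.4% of all genes). Without wild-type array 1, so that array 2 stood for the group alone, 4 genes passed as higher, beside 0.449% of all genes: Nr4a2 (0.94, adjusted p 0.0190), Fosl2 (0.71, 0.0254), Dusp4 (0.64, 0.0262) and Dusp5 (0.56, 0.0268). Without wild-type array 2 the count was 0. The lone array is then assumed to vary like the other groups.

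Fos, Jun and Dusp1 did not separate by genotype. Fos was at 7.992 and 8.004 in SRC-3-deficient and 8.04 and 7.88 in wild-type cells, a difference of 0.04 (95% interval -0.13 to 0.21). Jun was at 10.27 and 10.48 against 10.48 and 10.36, a difference of -0.04 (-0.25 to 0.16). Dusp1 was at 10.64 and 10.97 against 10.60 and 10.86, a difference of 0.07 (-0.23 to 0.38). All 3 sets of values overlapped between genotypes.

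The same held for the growth regulator Myc, at 12.47 and 12.33 against 12.70 and 12.23 (-0.07, interval -0.40 to 0.26). Dusp6 was at 10.88 and 10.47 against 11.16 and 10.65 (-0.23, interval -0.67 to 0.21). Cd69 was at 11.59 and 11.24 against 11.66 and 11.06 (0.05, interval -0.39 to 0.50). These intervals leave room for differences of either sign.

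For Egr1, Egr2 and Nr4a1, replicate arrays of the SRC-3 experiment differed more than the genotypes. Egr1 was at 10.35 and 9.82 in SRC-3-deficient and 10.61 and 9.78 in wild-type cells (difference -0.11, SE 0.27). Egr2 was at 10.62 and 9.84 against 10.71 and 9.49 (0.13, SE 0.39). Nr4a1 was at 11.79 and 11.21 against 11.68 and 10.55 (0.38, SE 0.34). In each of these 6 pairs of replicates, deficient and wild type alike, array 1 was above array 2.

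Across the list, the SRC-3 wild-type arrays differed by at least 0.5 for 11 of 35 genes (31.4%), beside 2.3% of all genes. The gap was widest for Egr2 (1.21), Nr4a1 (1.13) and Nr4a3 (1.12), and array 1 was higher for 31 of the 35 genes against 45.4% of all genes. The SRC-3-deficient arrays differed by as much for 5 genes (14.3%, beside 1.54% of all genes). Those were Egr2, Nr4a3, Nr4a1, Egr1 and Spry1. The median SD of the 35 genes was 0.24 in the SRC-3 wild type, 0.10 in SRC-3-deficient, 0.08 in RORγt-deficient and 0.06 in RORγt wild-type cells, while over all genes it lay between 0.04 and 0.07.

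**Figure D4:**
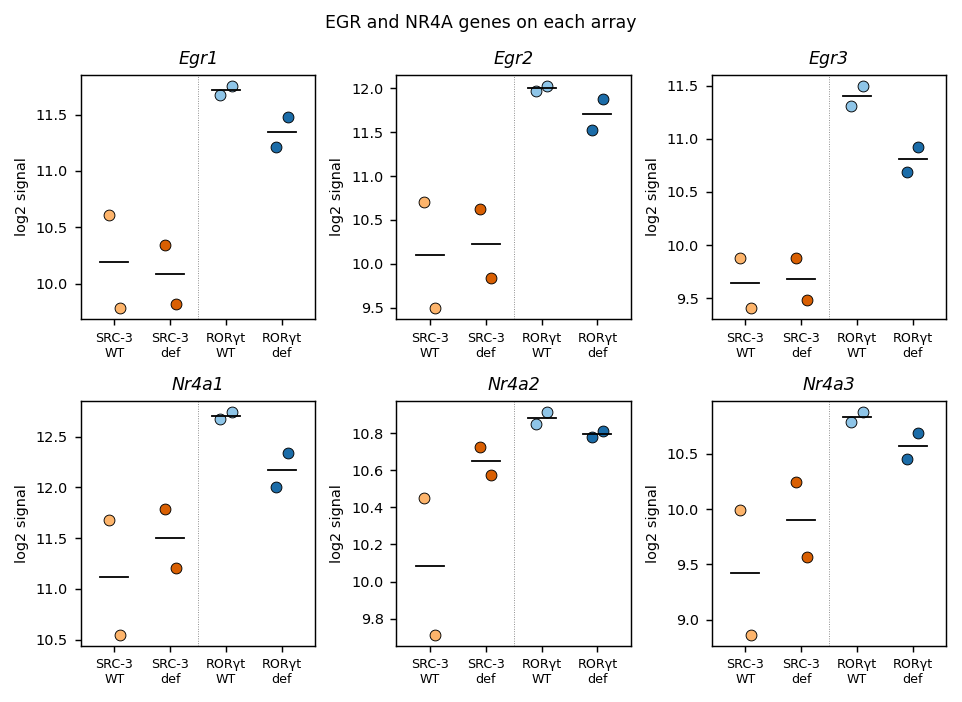
Log2 signal (vertical axis) of Egr1, Egr2, Egr3, Nr4a1, Nr4a2 and Nr4a3 by group (WT, wild type; def, deficient); each point is 1 array and each line the mean of 2. The arrays of the SRC-3 experiment are spread widely, the SRC-3 wild type most, and the RORγt arrays lie above them for all 6 genes.

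The effects of RORγt and SRC-3 deficiency differed for 1 of the 35 genes (2.86%), beside 1.67% of all genes tested (0.746% higher, 0.926% lower). That gene was Dusp4, with a difference of effects of -1.02 (SE 0.15, adjusted p 0.0244 by limma). Its fall in RORγt-deficient cells passed the threshold. Its positive difference in SRC-3-deficient cells did not (adjusted p 0.133), so a rise there is not established. The adjusted p was above the threshold without SRC-3-deficient array 1 (0.0584) or 2 (0.0721), without RORγt-deficient array 1 (0.119) or 2 (0.0756), and without RORγt wild-type array 1 (0.119) or 2 (0.126). The next largest differences of effects, of Dusp5 (-0.95, adjusted p 0.122) and Nr4a1 (-0.92, 0.384), did not pass. Dusp5 passed without SRC-3 wild-type array 1 (-1.29, adjusted p 0.00338) or 2 (-0.62, 0.0348), and Nr4a2 (0.00960) and Spred1 (0.0273) passed without array 1. The wild types entered this contrast too, and they differed from each other.

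Most of the listed genes differed between the 2 wild types, and nearly all of those in 1 direction. Wild-type cells of the RORγt experiment had higher signals than those of the SRC-3 experiment for 25 of the 35 genes and lower for 2, in all 77.1%, where 58.5% of all genes passed (31.2% higher, 27.3% lower). Egr2, Fosl2, Egr3, Nr4a1 and Egr1 led, 2.87- to 3.74-fold higher. Experiment, mouse strain and array run cannot be told apart here, and the time of harvest is not given.

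The EGR factors were among the largest differences: Egr2 was higher by 1.90 (SE 0.39, adjusted p 0.00417), Egr3 by 1.76 (SE 0.18, 0.000203) and Egr1 by 1.52 (SE 0.27, 0.00213). Of the NR4A receptors, Nr4a1 was higher by 1.59 (SE 0.34, adjusted p 0.00538), more than Egr1, Nr4a3 by 1.41 and Nr4a2 by 0.80. Without RORγt wild-type array 2, the adjusted p of Nr4a2 was 0.0608 and that of Nr4a3 0.0556. For all 6 genes the RORγt-experiment arrays, deficient ones included, lay above every SRC-3 array.

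Of the AP-1 genes 5 were higher and 1 lower. Fosl2 was at 12.19 and 12.26 in the RORγt wild type and 10.73 and 10.10 in the SRC-3 wild type (1.81, SE 0.17, adjusted p 0.000144). Fosl1 was higher by 1.48 (adjusted p 0.00103), Jund by 0.57, Fos by 0.34 and Fosb by 0.32. Jun was lower by 0.36, as a difference of -0.36 (adjusted p 0.00965), and Junb differed by 0.10 (0.248). Fosb was lost without either RORγt-deficient array (adjusted p 0.0575 for each), RORγt wild-type array 1 (0.206) or SRC-3 wild-type array 2 (0.177), and Jun without RORγt wild-type array 1 (0.0520).

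The feedback inhibitors were higher in part. Dusp4 (1.12, SE 0.11, adjusted p 0.000133), Dusp5 (1.11, SE 0.18, 0.00159), Dusp1 (0.63, 0.00436) and Dusp2 (0.40, 0.0480) passed, and Dusp6 (0.37, 0.124) and Dusp10 (-0.16, 0.134) did not. Spry1 was higher by 1.07 (SE 0.30, adjusted p 0.0175), Spred1 by 0.56 (0.0274) and Spry2, without the filter, by 0.65 (0.000792). Among the least certain were Dusp2, lost without RORγt wild-type array 1 (0.155) or 2 (0.137) or SRC-3 wild-type array 2 (0.244) and with a new quantile normalization (0.0680), and Spred1, lost without the same arrays (0.124, 0.0781 and 0.0788). Spry1 was lost without RORγt wild-type array 1 (0.0633) or 2 (0.0860).

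The mRNA decay factors were higher, Zfp36l1 by 1.17 (SE 0.07, adjusted p 4.04e-05) and Zfp36 by 0.87 (SE 0.07, 9.14e-05). Csrnp1, a nuclear protein induced by early signals, was higher by 1.05 (SE 0.12, 0.000318), Myc by 0.78, the survival gene Ier3 by 0.70, the kinase gene Pim1 by 0.44, Btg2 by 0.29 and Klf4 by 0.19. Klf10 was the other gene that was lower (-0.39, SE 0.06, adjusted p 0.00123). Cd69, Ier2, Ier5, Klf6 and Maff did not pass. Klf4 (adjusted p 0.0452) was lost without RORγt-deficient array 1 or 2 (0.0743 for each), RORγt wild-type array 1 (0.171) or 2 (0.107), or SRC-3 wild-type array 1 (0.206), and with no filter (0.0558), an intensity trend with a robust prior (0.0561) or the 4 wild-type arrays alone (0.0776). Cd69 (0.0450) and Junb (0.0294) passed with every array shifted to a common median, and Cd69 (0.00558) and Dusp6 (0.0224) without SRC-3 wild-type array 1.

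A difference of at least 2-fold was seen for 12 genes, all higher, and the share of all genes with such a difference was not counted. The median over the 35 genes was 0.57, beside 0.02 over all genes. With every array shifted to a common median these became 0.69 and 0.14, a shift of 0.12. All 4 arrays of the RORγt experiment lay above all 4 of the SRC-3 experiment for 21 of the 35 genes (60.0%) and below for 2 (5.7%), Jun and Klf10, while over all genes the shares were 29.0% and 27.1%. Groups did not overlap for 31 of the 35 genes, 28 of them higher and 3 lower, beside 80.3% of all genes (42.1% higher, 38.2% lower).

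**Figure D5:**
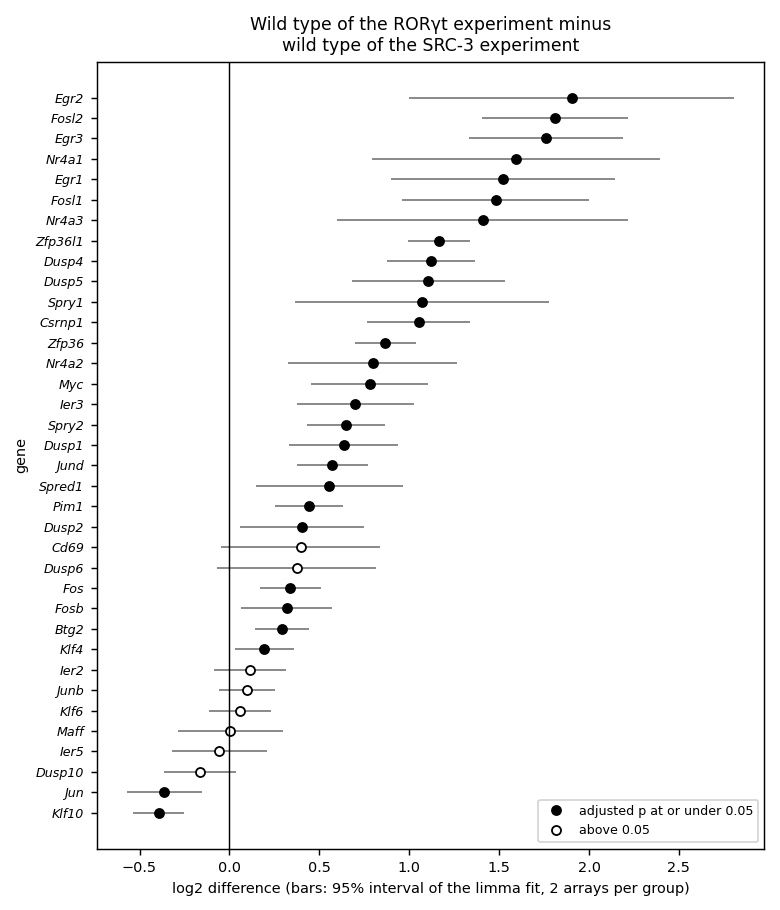
Log2 difference (horizontal axis) between the wild type of the RORγt experiment and that of the SRC-3 experiment for the 36 genes, with 95% intervals; filled points have an adjusted p of at most 0.05. Egr2 at 1.90 and Fosl2 at 1.81 are the highest, and Klf10 at -0.39 and Jun at -0.36 are the only filled points below 0.

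Genes of the pathways that drive and restrain these responses were counted from 7 lists drawn up by function. Earlier results of these data were known when the lists were made, so a share above that of all genes is no test of a pathway. Their counts are to be read beside the 19.4% of all genes that differed between RORγt-deficient and wild-type cells (10% higher, 9.37% lower). In the Ras to ERK cascade, 2 of 16 tested genes (12.5%) were higher and 0 lower in RORγt-deficient cells: the Ras activator Rasgrp1 (0.26, adjusted p 0.0325) and the adaptor Shc1 (0.23, 0.0347). In the JNK and p38 cascades 3 of 17 were higher and 2 lower (29.4% in all). Map3k5, the stress kinase ASK1, rose by 0.49 (adjusted p 0.00814) and the p38 isoform gene Mapk11 by 0.34 (0.0125). Gadd45b, an activator of the p38 pathway, fell by 0.73 (0.00173), and Mapkapk2, a kinase that p38 activates, fell by 0.44 (0.00777).

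Brakes on Ras and MAPK outside the list went both ways, 5 of 19 higher and 4 lower (47.4% in all, beside 19.4% of all genes). The Ras inhibitor gene Rasa3 was at 11.99 and 12.02 in RORγt-deficient and 10.69 and 10.73 in wild-type cells. It rose by 1.30 (adjusted p 0.000766), and Rasa1, encoding another Ras GTPase-activating protein, rose by 0.59 (0.00879). The diacylglycerol kinases Dgkz and Dgka, which remove the lipid that recruits RasGRP, rose by 0.40 (0.00542) and 0.39 (0.00657). The 4 lower genes, chosen for mention after their values were seen, were the phosphatase genes Dusp7 (-0.38, adjusted p 0.0172), Dusp14 (-0.29, 0.0257) and Dusp3 (-0.25, 0.0378) and the Ras GTPase-activating protein gene Nf1 (-0.35, 0.0244).

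The factors upstream of immediate early genes had 0 of 16 past the threshold, the nearest being Elk4 (0.19, adjusted p 0.0532) and Srf (-0.20, 0.0824). Of the AP-1 partners 0 of 13 rose and 4 fell (30.8%), where 19.4% of all genes passed and 9.37% were lower. Atf3 fell by 0.69 (adjusted p 0.00725 in limma), Batf3 by 0.50 (0.00795), Atf4 by 0.34 (0.00833) and Mafk by 0.40 (0.0472). The EGR corepressors and targets had 0 of 7. Of 23 other early response genes, Atf3 again among them, 3 rose and 6 fell (39.1% in all). Klf2, a factor of T cell quiescence and trafficking, rose by 1.43 (0.000317) and Sgk1, encoding a serum- and glucocorticoid-induced kinase, by 0.92 (0.00119), while Id2 fell by 0.37 (0.00706).

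In SRC-3-deficient cells the 7 pathway lists held 1 gene past the threshold among 110 tested (0.909%), where 0.225% of all genes passed. Maf, a bZIP factor of Th17 cells counted with the AP-1 partners, was at 11.73 and 11.59 against 12.32 and 12.36 in wild-type cells and fell by 0.68 (adjusted p 0.0198). With the 4 SRC-3 arrays fitted alone, 0 genes passed in limma, Maf included, and 827 had an unadjusted p under 0.05.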

How the data were processed

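The 8 RNA samples were hybridised to mouse whole-transcript gene arrays. The values deposited by the authors are log2 signals; per the submitters' processing notes RMA and Affymetrix Expression Console were used (versions not given). No new normalization was applied. The 21789 of 35556 probe sets with 1 gene symbol were kept, the brightest per gene, if they reached the median of all values (7.85) on at least 2 arrays. Group means of all 8 arrays were fitted with limma 3.58.1 (lmFit, eBayes) in R 4.3.3, without a block, with 4 residual and 3.53 prior degrees of freedom. Tests were two-sided, with Benjamini-Hochberg adjustment over 11128 genes and a threshold of 0.05. An SE is that of this fit. Alternatives were another normalization, filter, variance model, set of arrays, array weights, a replicate block and each array left out. On simulated data with the spread of each experiment, the fit gave more false calls in the SRC-3 comparison than the threshold allows. The cause of this excess was not tested. The number of arrays limits the precision.

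The genes and lists were chosen with earlier results of these data known. All list members were described; per-array values are given for those past the threshold in a genotype comparison and for Fos, Jun, Egr1, Egr2, Nr4a1, Dusp1, Dusp6, Myc and Cd69. Further per-array values (Egr3, Fosl1, Fosl2, Jund, Nr4a2 and genes of the pathway lists) were chosen after they were seen. Of each pathway list, up to 4 genes past the threshold by smallest p are named, otherwise up to 2. Promoters were searched with Python 3.11.15. Probe coordinates are not given, because no build is given in the sources used here.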

Additional observations from a re-analysis of the deposited data

Results flagged for a closer look

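For 9 genes of the immediate early and feedback list and the pathway lists, the effect of RORγt deficiency differed from that of SRC-3 deficiency in the limma test of the difference itself. They were 1 of 35 tested genes of the immediate early and feedback list (2.86%) and 8 of 110 of the pathway lists (7.27%), beside 1.67% of all genes. The lists were made with earlier results of these data known, so these shares are no test of the lists. The difference of effects, RORγt minus SRC-3, was -1.02 for Dusp4 (SE 0.15, adjusted p 0.0244), the 1 of the immediate early and feedback list. It was 1.42 for Klf2 (SE 0.12, adjusted p 0.00475), 1.28 for Sgk1 (SE 0.12, 0.00596), 1.20 for Rasa3 (SE 0.15, 0.0158) and 0.72 for Map3k5 (SE 0.12, 0.0350). It was -1.21 for Atf3 (SE 0.16, adjusted p 0.0182), -0.74 for Gadd45b (SE 0.11, 0.0228), -0.68 for Ifrd1 (SE 0.12, 0.0394) and -0.81 for Rgs2 (SE 0.14, 0.0402), which was added after its values were seen. The experiments also differed in wild type and in the sex pattern of the arrays, and the part of these in the differences was not tested.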

How the results depend on the processing

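No setting tried reversed a call. Of the values per gene and setting, 600 of 604 kept their side of the threshold in the SRC-3 comparison, 555 of 604 in the RORγt comparison, 552 of 568 for the difference of effects and 574 of 604 between the wild types. The SRC-3 comparison had 0 listed genes called, so no call could be lost there. In the RORγt comparison calls of its 6 genes were lost in 25 values, and others were gained in 24. A difference that was not called changed sign in 34, 15, 32 and 6 values of the 4 comparisons. Genes past the threshold numbered 25, 2157, 186 and 6508 in these comparisons. With the stricter filter, which fewer genes passed, they were 14 (SRC-3), 119 (difference) and 4144 (wild types), with 1 listed gene lower between the wild types. With no filter they were 9918 between the wild types. An intensity trend with a robust prior gave 47 genes in the SRC-3 comparison. Array weights gave 10 genes there, and 3679 genes and 7 lower listed genes in the RORγt comparison. With the 4 arrays of a comparison alone, 0 genes passed for SRC-3 in limma (827 at an unadjusted p under 0.05), and 3389 with 9 lower listed genes for RORγt. The cause of these changes was not tested.

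Replicate numbers 1 and 2 recur in each group. The labels do not say whether arrays of the same number share a litter, day or run. Deviations of same-numbered arrays from their group means correlated at 0.54 in the SRC-3 and 0.0017 in the RORγt experiment. The main fit took no account of the number. With the replicate block, 301 genes passed for SRC-3 (0 of the list), 3411 for RORγt (2 higher, 10 lower) and 945 for the difference (Dusp10 higher; Dusp4, Dusp5, Egr3, Ier5, Nr4a1 and Nr4a3 lower, 6 in all).

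With 1 array left out at a time, genes past the threshold ranged from 0 to 61 for SRC-3, from 486 to 2539 for RORγt, from 15 to 264 for the difference and from 4986 to 6633 between the wild types. Listed genes ranged from 0 to 4 higher for SRC-3, from 0 to 2 higher and 0 to 6 lower for RORγt, from 0 to 4 lower for the difference, and from 19 to 26 higher and 1 to 2 lower between the wild types. With 2 arrays per group, small differences of Egr2, Nr4a1 or Nr4a3, whose SRC-3 wild-type arrays lie far apart, are not detectable.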
